A study of Mus musculus with 2 samples.

Results

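The open sites in coding exons were 1839 stretches of accessible chromatin in newborn mouse lung whose centre fell in protein-coding sequence. Overlapping DNase-seq peaks of both libraries were merged on chromosomes 1 to 19, and sites with peaks in both libraries were kept, here called shared. A shared site was chosen if its centre lay in a coding segment (CDS) of a GENCODE protein-coding gene of mm10 and over 1000 bp from any annotated transcription start site (TSS). The 1839 sites made up 1.17% of 157228 shared sites and 1.56% of the 118098 shared sites over 1000 bp from a TSS, which are called distal. Sites found in at least 1 library numbered 283349. Peak scores played no part in the choice.

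DNase-seq maps open chromatin by sequencing the ends that the enzyme DNase I leaves where nucleosomes are displaced. The tissue was lung of mice labelled as strain B6NCrl, postnatal, 0 day old, in 1 group of 2 biological replicates, and no treatment, other tissue or other age was analysed here. The labels list separate biosamples under the same donor entry, give the sex as not collected and do not say whether these were single animals or pools. They name 2 instrument models for replicate 1 and none for replicate 2. With 1 group and no control group, no difference between conditions could be tested, and the values below are descriptions. Intervals are exact binomial 95% intervals that cover counting error only.

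Coding exons carry the genetic code, and the same bases can also be read by transcription factors. Enhancers that overlap coding exons are known from genes such as Hoxa2 and Dync1i1, and exons of the latter can act on neighbouring genes. CTCF, the zinc finger protein of insulators and chromatin loops, and AP-1, the dimer of Fos and Jun proteins, are factors whose binding often coincides with open chromatin away from promoters.

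Sequence is given first for the strongest sites of 3 kinds, as the 150 bp around the site centre on the plus strand of mm10 (GRCm38), 5′ to 3′. Strength is the mean rank of the authors' peak score over both libraries. The first kind held the CTCF core consensus, a 12-base word with alternative letters. Synpo2l encodes an actin-binding protein of heart and skeletal muscle, and its window was chr14:20661086-20661235. Rasip1 encodes a Ras-interacting protein needed for the lumen of blood vessels, and its window was chr7:45628846-45628995. Pgls encodes an enzyme of the pentose phosphate pathway (chr8:71596016-71596165), and Utrn encodes utrophin, a relative of dystrophin (chr10:12690746-12690895). Capitals mark the CTCF match.
Synpo2l: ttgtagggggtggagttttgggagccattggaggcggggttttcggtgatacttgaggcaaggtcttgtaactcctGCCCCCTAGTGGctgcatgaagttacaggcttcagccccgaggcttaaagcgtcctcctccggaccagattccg
Rasip1: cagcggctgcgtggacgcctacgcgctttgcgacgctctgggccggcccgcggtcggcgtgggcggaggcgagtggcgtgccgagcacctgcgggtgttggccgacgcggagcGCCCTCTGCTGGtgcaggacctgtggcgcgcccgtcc
Pgls: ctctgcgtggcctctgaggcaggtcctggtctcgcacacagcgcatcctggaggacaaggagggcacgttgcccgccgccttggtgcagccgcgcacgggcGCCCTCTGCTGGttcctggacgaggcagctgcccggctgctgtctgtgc
Utrn: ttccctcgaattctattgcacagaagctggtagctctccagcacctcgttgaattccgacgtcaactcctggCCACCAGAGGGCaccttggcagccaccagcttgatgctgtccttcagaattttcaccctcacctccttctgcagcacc

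The second kind held the AP-1 motif TGANTCA, which is marked by capitals below. Fry encodes a large microtubule-binding protein (chr5:150466306-150466455), Adamtsl5 a secreted matrix protein (chr10:80342816-80342965), and 1810062G17Rik a protein known by its clone name (chr3:36481816-36481965). The match reads TGAGTCA in Fry and Adamtsl5 and TGACTCA in 1810062G17Rik.
Fry: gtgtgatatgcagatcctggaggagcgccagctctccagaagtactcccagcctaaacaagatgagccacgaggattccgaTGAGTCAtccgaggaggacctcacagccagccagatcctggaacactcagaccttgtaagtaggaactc
Adamtsl5: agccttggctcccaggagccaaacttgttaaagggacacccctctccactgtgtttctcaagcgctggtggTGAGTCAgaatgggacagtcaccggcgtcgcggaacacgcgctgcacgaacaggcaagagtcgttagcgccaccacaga
1810062G17Rik: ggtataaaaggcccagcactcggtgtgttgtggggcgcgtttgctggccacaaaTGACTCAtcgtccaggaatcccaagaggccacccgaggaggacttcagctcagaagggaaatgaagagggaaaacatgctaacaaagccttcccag

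The third kind held neither motif and included some of the strongest coding-exon sites. Sptbn4 encodes a spectrin of the axon initial segment (chr7:27361496-27361645), Zfp771 a zinc finger protein (chr7:127254176-127254325), Slc4a5 a sodium bicarbonate cotransporter (chr6:83268276-83268425), and Fbxl22 an F-box protein of the sarcomere (chr9:66511756-66511905). Capitals mark the SP/KLF motif GGGCGGGG, read on the minus strand, in Sptbn4 and the E-box CACGTG in Fbxl22. The windows of Zfp771 and Slc4a5 held none of the 26 motifs searched. CpG dinucleotides numbered 14 in Sptbn4, 27 in Zfp771, 9 in Slc4a5 and 28 in Fbxl22.
Sptbn4: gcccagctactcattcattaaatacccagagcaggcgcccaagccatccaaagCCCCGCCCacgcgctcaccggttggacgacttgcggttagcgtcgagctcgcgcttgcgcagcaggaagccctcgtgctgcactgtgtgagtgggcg
Zfp771: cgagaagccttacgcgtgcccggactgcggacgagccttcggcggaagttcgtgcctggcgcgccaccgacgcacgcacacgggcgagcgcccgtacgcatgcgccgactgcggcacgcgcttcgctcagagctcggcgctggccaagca
Slc4a5: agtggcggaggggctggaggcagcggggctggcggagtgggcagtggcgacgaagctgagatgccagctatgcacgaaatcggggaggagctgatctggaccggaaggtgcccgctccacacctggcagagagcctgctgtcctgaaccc
Fbxl22: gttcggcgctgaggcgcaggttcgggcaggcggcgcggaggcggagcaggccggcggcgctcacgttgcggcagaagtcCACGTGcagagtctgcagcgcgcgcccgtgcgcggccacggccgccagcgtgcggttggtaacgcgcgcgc

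On chromosomes 1 to 19 the lists held 269825 peaks in replicate 1 and 183814 in replicate 2. The depth of sequencing is not given in the sources used here. Lung marker genes were mostly open at their promoters. A shared site lay within 500 bp of a TSS in 13 of 13 alveolar type 2 genes, 14 of 15 alveolar type 1 genes and 19 of 21 endothelial genes. Lists of other lineages ranged from 3 of 19 liver genes, 6 of 17 myeloid genes and 7 of 18 skeletal muscle genes to 8 of 12 erythroid and 19 of 24 neuronal genes, against 75.2% of all 18254 genes that had coding bases over 1000 bp from any TSS.

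Coding-exon sites had the same median scores as open introns. Their median score was 63 in replicate 1 (quartiles 44 and 82, highest 139) and 43 in replicate 2 (quartiles 31 and 60, highest 124). Shared intronic sites had medians of 63 and 43, and shared intergenic sites had 62 and 42. Sites within 1000 bp of a TSS stood higher, at 86 and 63. The top 10% of the distal scores began at 100 in replicate 1 and 76 in replicate 2. Both limits were passed by 126 coding-exon sites (6.85%, interval 5.74 to 8.10), against 7.54% of all distal sites. The sources used here do not say what the score measures, and it was compared within each list.

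Both libraries ranked the sites alike. Spearman's rank correlation between the scores of replicates 1 and 2 was 0.905 over the 1839 sites and 0.895 over shared intronic sites, as a description of points that share their libraries. In 1724 sites the score was higher in replicate 1, in 88 it was lower and in 27 it was equal. The median log2 ratio of replicate 1 to replicate 2 was 0.47 in coding-exon sites and 0.48 in intronic sites. The scales of the lists may differ, so the ratio has meaning only beside that of other sites.

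**Figure D1:**
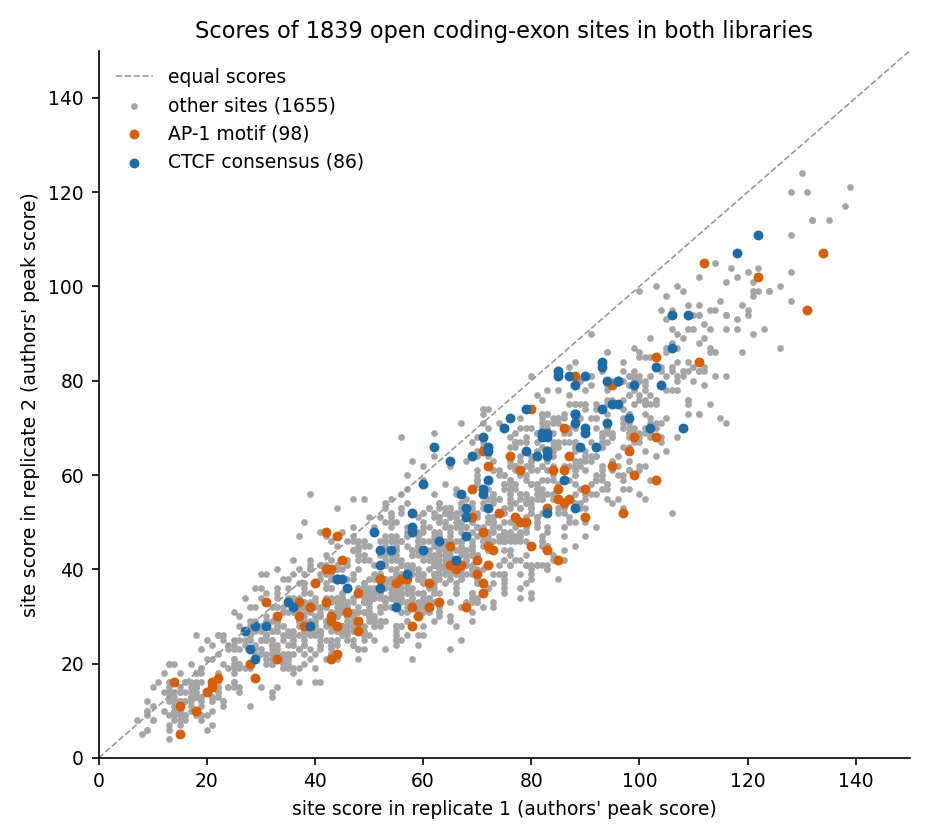
Score of each of the 1839 open coding-exon sites in replicate 1 (x axis) and replicate 2 (y axis), in the authors' units, with sites that held the CTCF consensus or the AP-1 motif in colour and a dashed line of equal scores. Most points lie below the line, and the 86 CTCF sites lie closer to it than the 98 AP-1 sites.

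Broader hotspots, which the authors called separately, covered nearly all of these sites. The centre of 1799 sites (97.8%, interval 97.0 to 98.4) lay in a hotspot of both replicates, against 98% of all distal sites, and 6 sites lay in no hotspot of either. Hotspots over coding-exon sites had a median width of 338.5 bp in replicate 1 and 251 bp in replicate 2, and 343 and 252 bp over intronic sites. Sites found in 1 library alone were weaker: 1373 coding sites with only a replicate 1 peak had a median score of 36, and 242 with only a replicate 2 peak had 27. Of all coding sites found in either library, 53.2% (interval 51.6 to 54.9) were shared, and 52.8% of intronic sites were. Without the need for a peak in the other library, replicate 1 gave 3245 coding sites and replicate 2 gave 2081.

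Coding bases held more open sites per length than introns did. Over 1000 bp from a TSS, coding bases carried 76.7 shared sites per Mb, introns 64.2, intergenic sequence 39.2 and untranslated or noncoding exons 80.8. The ratio of coding to intronic density was 1.19. Coding bases are richer in GC, and 53.7% of them lay in a 150 bp window with at least 50% GC, against 18.9% of intronic bases.

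Within bands of equal GC the order turned round. At 50 to 55% GC, coding bases held 68.8 sites per Mb and introns 120. At 55 to 60% the values were 82.2 and 184, and at 60 to 65% they were 130 and 282. The gap was small at 35 to 40% GC, with 28.2 and 28.6, and at 70% GC or more, with 779 and 812. If each band of coding bases had carried the intronic density, 3096 sites would have been counted, so that the observed 1839 gave a ratio of 0.594. This standardisation was added after the data were seen. Within bands of distance to the nearest TSS the ratio was 1.05, also after standardisation.

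**Figure D2:**
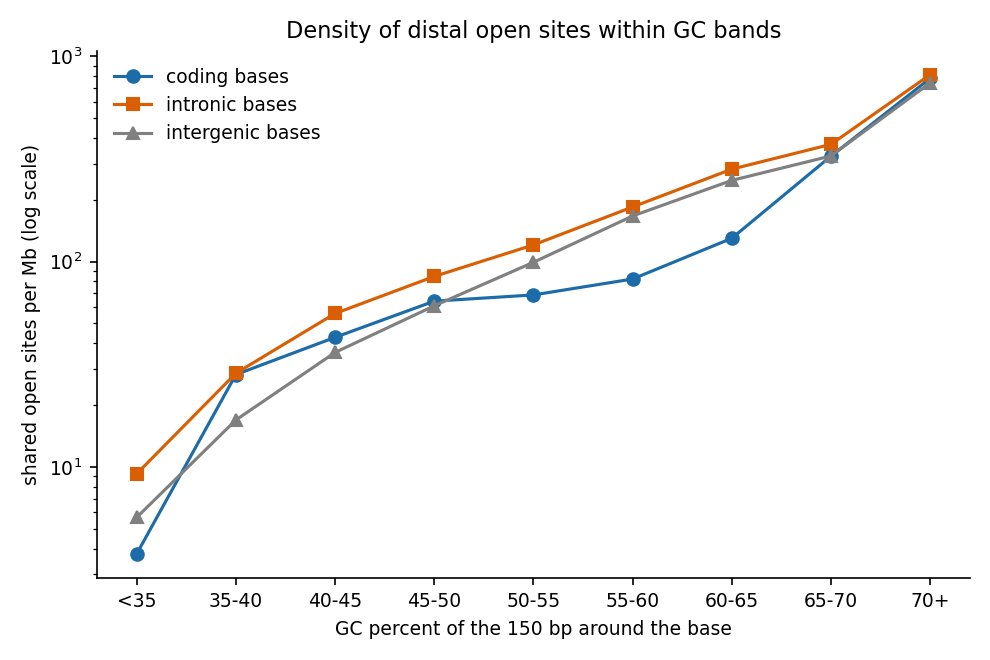
Shared distal open sites per Mb (y axis, log scale) of coding, intronic and intergenic bases in bands of GC percent of the surrounding 150 bp (x axis). Coding bases lie below introns in all 9 bands, for example with 82.2 and 184 sites per Mb at 55 to 60% GC.

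Scores followed the same order within GC bands. At 50 to 55% GC, the 381 coding-exon sites had median scores of 61 and 39, and intronic sites had 66 and 45. At 60 to 65% GC the medians were 67 and 46 in 304 coding-exon sites, and 74 and 51 in intronic sites.

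The open coding windows were rich in GC and CpG beside closed ones. Their median GC was 56.0%, against 48.7% in intronic sites and 49.3% in 130498 coding windows of 150 bp that touched no peak or hotspot of either library. In 547 sites (29.7%) the number of CpGs was above 0.6 of that expected from base content, against 12.7% of closed coding windows and 4.93% of intronic sites. These CpG-rich sites had median scores of 67 and 47, the other 1292 sites 62 and 41. A last or only coding segment held 52.7% of the CpG-rich sites and 25.3% of the rest. RefSeq, a second annotation, placed a TSS within 1000 bp of 55 CpG-rich sites (10.1%) and of 52 others (4.02%).

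The CTCF consensus set open coding windows apart from closed ones. It lay in 86 coding-exon sites (4.68%, interval 3.76 to 5.74), in 66 of the closed coding windows (0.0506%) and in 3.99% of intronic sites. In 65.1% of the 86 sites the match lay within 25 bp of the site centre, and 68 of the 86 matches were wholly coding. CTCF sites were strong in both libraries, with median scores of 79 and 65 against 62 and 42 in the other coding-exon sites. Their median log2 ratio of replicate 1 to 2 was 0.28, lower than 0.48 in the others, and intronic CTCF sites had 0.29. The ratio was also low, at 0.31, in the 183 strongest coding-exon sites, of which 15 held the consensus. It was 0.415 in the 183 weakest. The part of score in the ratio of CTCF sites was not tested. All 86 CTCF sites lay in a hotspot of both replicates. Over the coding sites of replicate 1 alone the consensus was in 2.84%, over those of replicate 2 alone in 4.33%, and with 1 mismatch allowed it was in 16.7% of the 1839.

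AP-1 matches were less frequent in open coding exons than in open introns. The motif TGANTCA lay in 98 coding-exon sites (5.33%, interval 4.35 to 6.46), in 3.42% of closed coding windows and in 10.5% of intronic sites. The coding share was below the intronic share in 6 of 6 GC bands, for example 9.19% and 10.5% at 50 to 55% GC. The reading frame limits where this motif lies in coding sequence. Of 5269 matches placed in a frame, open or not, 12 began at codon position 1, 2566 at position 2 and 2691 at position 3. The part of the frame in the lower coding share was not tested. Sites with AP-1 had median scores of 68.5 and 41.5 and a median log2 ratio of 0.57, and intronic AP-1 sites had 66 and 45 and a ratio of 0.50. None of the 98 sites also held the CTCF consensus.

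Other motifs fell on either side of the intronic share. The E-box CAGCTG, a motif of basic helix-loop-helix factors such as MyoD and Tcf21, was the most frequent, in 395 sites (21.5%, interval 19.6 to 23.4). It lay in 11.9% of closed coding windows and 14.5% of intronic sites, and the coding share was above the intronic one in 6 of 6 GC bands. The SP/KLF motif GGGCGGGG lay in 2.12% of sites, in 0.395% of closed windows and in 1.69% of intronic sites. The ETS motif CCGGAAGT lay in 14 sites (0.761%) and in 0.325% of intronic sites.

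Several motifs were scarcer than in open introns. The forkhead motif TGTTTAC lay in 23 sites (1.25%), against 4.50% of intronic sites and 1.51% of closed coding windows. At under 45% GC, however, it was in 6.36% of coding-exon and 6.18% of intronic sites. The GATA motif AGATAAG lay in 0.707% and 2.50%, and the SOX motif CCATTGT in 0.979% and 2.19% of coding-exon and intronic sites. The TEAD motif ACATTCC lay in 3.53% and 5.19%, and the RUNX motif TGTGGTT in 1.96% and 4.01%. In closed coding windows the shares were 1.40% for GATA, 2.31% for SOX, 2.07% for TEAD and 2.46% for RUNX. Without regard to GC, only TEAD of these was thus more frequent in open than in closed coding windows. Its coding share was below the intronic one in 5 of 6 GC bands. Median GC was 56.0% in open and 49.3% in closed coding windows. Within GC bands, RUNX was above the closed share at under 45% GC (3.64% and 2.62%) and at 55 to 60% (2.82% and 2.17%). It was below the closed share in the other bands. The forkhead, GATA, SOX and TEAD motifs were not set beside closed windows within GC bands. The motif CACTTGA of NKX2 factors, the family of the lung factor Nkx2-1, lay in 3.43% of coding-exon sites, 1.82% of closed coding windows and 4.13% of intronic sites.

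Motifs of REST, YY1, NRF1 and MEF2 were in 0 of 1839 sites. A count of 0 allows a share of up to 0.163% if the limit is set at 3 counts, and up to 0.2004% by the exact interval. In 970 sites (52.7%) none of the 26 motifs was found, and these had median scores of 59 and 41. Every motif was searched on both strands, motifs could overlap in a window, and a match is not evidence of binding.

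**Figure D3:**
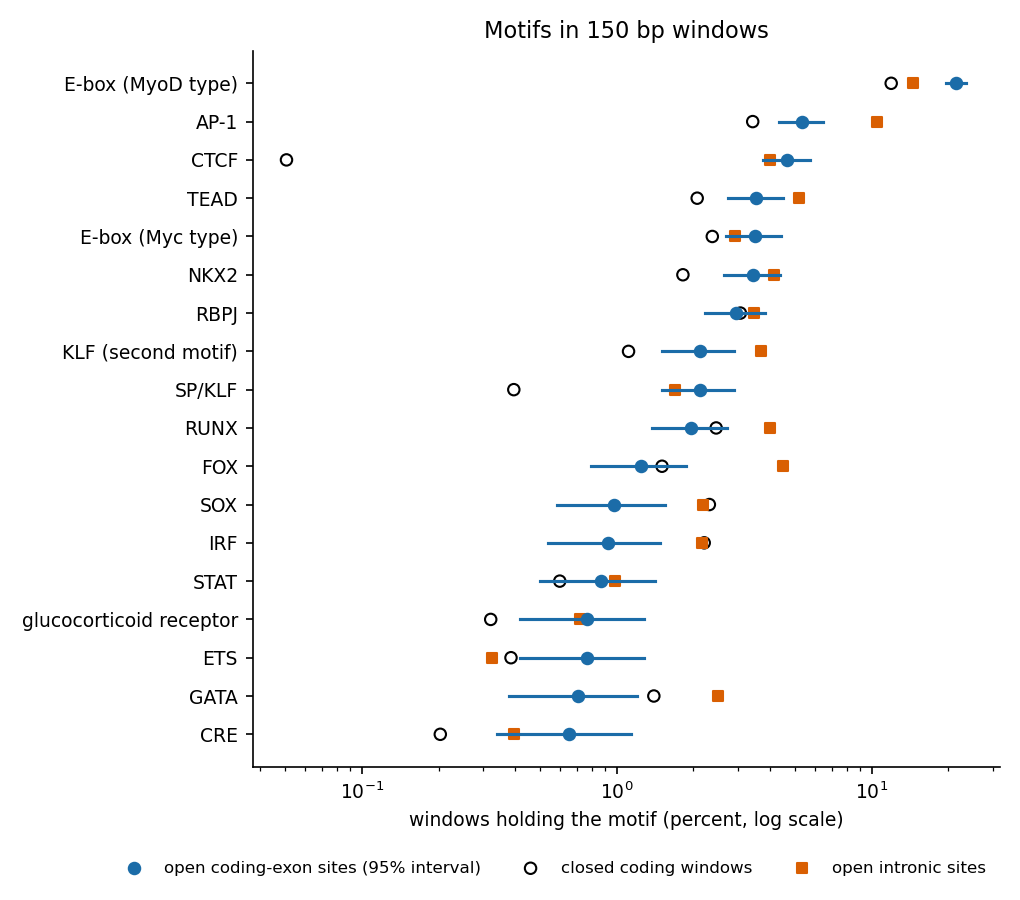
Percent of 150 bp windows that held each motif (x axis, log scale) in open coding-exon sites with the 95% interval, in closed coding windows and in open intronic sites, for motifs in at least 10 coding-exon sites. MyoD type marks CAGCTG, Myc type CACGTG and the second KLF motif CCCCACCC; the widest gap between open and closed coding windows is that of CTCF (4.68% and 0.0506%).

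Read from the motif side, a CTCF match in coding sequence was open less often than one elsewhere. Of 197 matches whose middle lay in distal coding bases, 77 (39.1%, interval 32.2 to 46.3) fell in a shared site. The share was 50.4% of 5068 intronic matches and 60.1% of 419 matches in untranslated or noncoding exons, and neither interval overlapped that of coding matches. The intervals by orientation overlapped: 30 of 73 matches on the sense strand (41.1%) and 42 of 109 on the antisense strand (38.5%) were in a shared site. For AP-1, 86 of 5407 coding matches (1.59%, interval 1.27 to 1.96), 2.58% of intronic and 1.64% of intergenic matches were in a shared site. For ETS the shares were 2.28% of 791 coding and 4.28% of intronic matches. For RUNX they were 1.11% and 1.24%, with overlapping intervals.

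Along genes, the ends of the coding sequence held the sites more densely than the middle. Each site was placed on the longest coding transcript that held its centre, which was the longest of its gene for 1775 of the 1839 sites. Densities were taken over the distal coding bases of each gene's longest coding transcript. In this way 1105 sites (60.1%) lay in an internal coding segment, at 64.3 sites per Mb. Last coding segments held 488 sites (26.5%, interval 24.5 to 28.6) on 18.6% of the coding bases, or 111 per Mb. First segments held 119 sites at 126 per Mb, and genes with a single coding segment held 127 at 116 per Mb. The density was 90.4 per Mb in the first of 10 equal parts of the coding sequence, 67.4 in the third and 105 in the last.

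Segment length and GC moved with position. Sites in last segments had a median GC of 59.3% and in internal segments 52.7%, and scores of 68 and 47 against 60 and 41. The sites' segments were 210 bp long at the median, and the base-weighted median of all coding segments was 185 bp. Density was 63.0 per Mb in segments of 100 to 150 bp, 100.2 in those of 500 to 1000 bp and 66.7 in those over 2000 bp. The nearest TSS lay at a median of 1698 bp from sites in first segments and 1538 bp from those in single segments. For last segments it was 4507.5 bp and for internal ones 6339 bp. The part of GC, length and TSS distance in the position values was not tested.

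**Figure D4:**
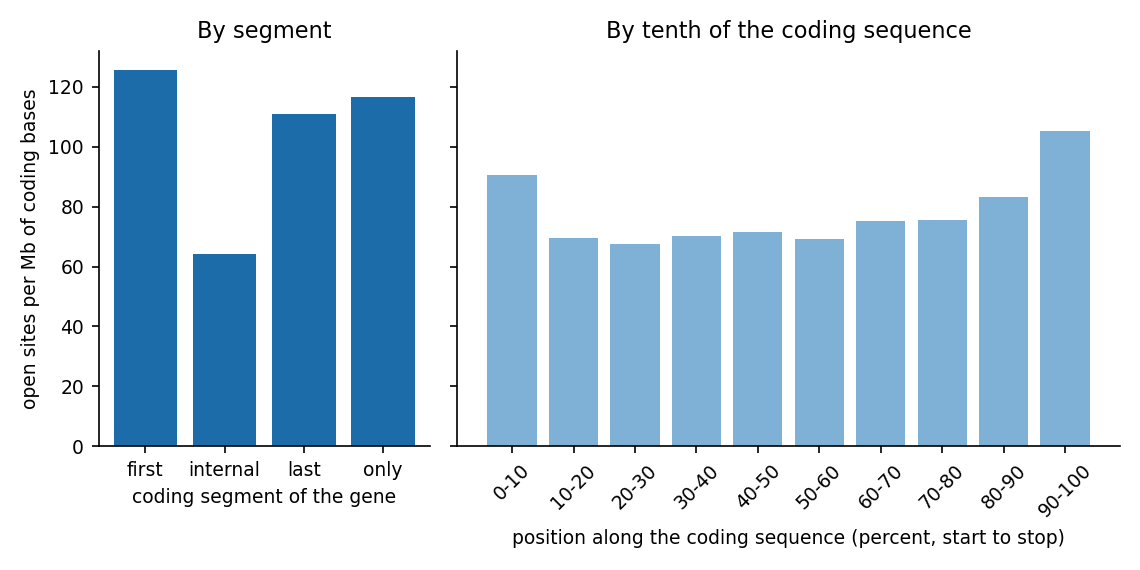
Open coding-exon sites per Mb of distal coding bases (y axis) by coding segment of the gene (left) and in 10 equal parts of the coding sequence from start to stop (right). Internal segments carry 64.3 per Mb and last segments 111, and the last of the 10 parts carries 105.

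Many sites overlapped splice junctions or other noncoding bases. A window held 133 coding bases at the median, 737 windows (40.1%) were wholly coding, and 76 held fewer than 75 coding bases. Wholly coding windows had median scores of 66 and 44, partly coding ones 62 and 42. The nearest TSS lay 4788 bp away at the median (range 1005 to 323953) and belonged to the host gene in 1324 cases (72.0%). Another shared site lay within 1000 bp in 30.2% of cases, against 27.3% for intronic sites, and 607 sites (33.0%) were the sole shared site within 5000 bp.

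At the limit of 1000 bp the choice was close for some genes. Just inside lay sites of Pum2 (1005 bp, scores 85 and 66), Plekha5 (1005 bp, 56 and 53) and Star (1007 bp, 35 and 22). Just outside lay sites of B3gat2 (1000 bp, 92 and 78), Grin2d (998 bp, 125 and 102) and Bsn (998 bp, 66 and 43). RefSeq gave a TSS within 1000 bp of 107 sites (5.82%). Among the 20 strongest sites this held for 4, at 26 bp in Psmc2, 76 bp in Apold1, 259 bp in Angptl6 and 696 bp in B430305J03Rik. Of other sites named in this report it held, among others, at 265 bp in Pgls, 337 bp in Bbc3 and 352 bp in Foxo3. It also held at 939 bp for a Jag1 site and at 979 bp in Ash1l.

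The 20 strongest sites scored 118 to 139 in replicate 1 and 99 to 124 in replicate 2, and all 20 lay in hotspots whose −log10 q-value stood at the cap of 100 in both. GC was over 60% in 15 of them and 11 lay in a last or only coding segment. The strongest was in B430305J03Rik (chr3:61363716-61363905), with scores of 139 and 121 and 91 coding bases in its window. Sptbn4 followed with 138 and 117, in coding segment 32 of 35. Sft2d3, a gene with a single coding segment, had 130 and 124, the highest replicate 2 score of all.

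Metabolic and transport genes among the strongest were Bcat2 and Slc4a5. Bcat2 encodes the mitochondrial branched-chain aminotransferase, and its site (chr7:45589256-45589425) scored 135 and 114 on a last coding segment of 36 bp. Slc4a5 scored 132 and 114 in coding segment 11 of 25. Psmc2, a proteasome ATPase gene, scored 126 and 100.

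Genes of vessels and of signalling were also there. Apold1, an early-response gene of endothelium, scored 122 and 104 (chr6:134983636-134983805), and Rasip1 scored 118 and 107. Angptl6, a secreted angiopoietin-like factor, scored 128 and 120 (chr9:20878196-20878445), and Lpar5, a lysophosphatidic acid receptor, scored 128 and 111 (chr6:125081916-125082085). Def6 and Arhgef17, which encode exchange factors of small GTPases, scored 120 and 103, and 124 and 99. Neither Angptl6 nor Lpar5 had a shared site within 500 bp of its TSSs in GENCODE. RefSeq, however, places a TSS of Angptl6 259 bp from the site named here.

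Transcription factor genes held another group. Zfp771 scored 131 and 120, Zfp503, a developmental repressor, 128 and 103 (chr14:21986116-21986265), and Maff, a small Maf protein, 121 and 101 (chr15:79357736-79357885). Cytoskeletal genes were Rai14 (134 and 107, AP-1), Synpo2l (122 and 111, CTCF) and Fry (122 and 102, AP-1). Fbxl22 (132 and 114) and Ccdc92b (124 and 99) completed the 20.

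Further strong CTCF sites lay in Mroh6 (chr15:75884176-75884345, 106 and 87) and Ptprb, the vascular endothelial tyrosine phosphatase gene (chr10:116319336-116319485, 103 and 83). Pgls scored 109 and 94, and Utrn 106 and 94. Further strong AP-1 sites lay in Rin2, an exchange factor gene of endosomes (chr2:145860556-145860705, 131 and 95), and Sult5a1, a sulfotransferase gene (chr8:123145396-123145545, 103 and 85). Adamtsl5 scored 112 and 105, and 1810062G17Rik 111 and 84.

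Some sites lay inside very wide hotspots. The merged hotspot was 6481 bp at Marcks, a protein kinase C substrate gene (chr10:37136276-37136905, scores 91 and 79). It was 6192 bp at Bbc3, the Puma cell death gene, where the site scored 66 and 28 and the replicate 2 hotspot was 74 bp. At an exon shared by the Ugt1a glucuronosyltransferase genes it was 5376 bp (44 and 30), at the ubiquitin ligase gene Trim8 5237 bp (111 and 82), and at Klf4 4892 bp (116 and 94). The exon shared by Ugt1a genes is 1 of 11 sites that several annotated genes hold, so that no single host can be named there.

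The 1839 sites lay in 1634 of 18254 genes tested (8.95%). A single site was found in 1457 host genes, 2 in 149, and 3 or more in 28. The median number of sites per gene was 0 over all genes and in each list below. Longer coding sequence went with more hosts: 3.04% of genes with up to 500 distal coding bp, and 29.7% of those with over 4000, held a site. Per Mb of coding sequence the order was the reverse, at 112 and 63.7 sites.

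Most host genes were open at their own promoter. A shared site lay within 500 bp of a TSS in 1376 host genes (84.2%, interval 82.4 to 85.9) and in 74.3% of genes without a coding-exon site. Host genes had a median of 1647 distal coding bp, the others 887.5. Open promoters were found in 66.6% of genes with up to 500 distal coding bp and in 84.7% of those with over 4000. The part of coding length in the promoter values was not tested. Genes with an open promoter were hosts in 10.02% of cases and those without in 5.70%, at 81.3 and 59.8 sites per Mb.

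The other 258 host genes had no open promoter by this measure, which used GENCODE TSSs. Their strongest sites were looked up after the values were seen. After Angptl6, Lpar5 and Synpo2l came Spi1, the master factor of myeloid cells (114 and 105, coding segment 5 of 5), and Spib, its lymphoid relative (118 and 93). Apoa1, the apolipoprotein of high-density lipoprotein, had 116 and 94 in its last segment (chr9:46229996-46230165), and Klf1, the erythroid Krüppel-like factor, had 108 and 99 (chr8:84903136-84903305).

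The 8 genes with the most sites held 4 to 7 each, and of genes tied at 4 those with the shortest coding sequence were taken. Tchh, which encodes trichohyalin of hair follicles, held 7 sites in 1 coding segment of 4659 bp and had no open promoter. Their scores ran from 48 to 108 in replicate 1 and from 21 to 85 in replicate 2. Syne2, which encodes a nesprin that ties the nucleus to the cytoskeleton, held 7 sites spread over 18848 distal coding bp, with scores of 43 to 70 in replicate 1 and 22 to 46 in replicate 2. Of the Tchh sites 5 stood above the median scores of both lists, and of the Syne2 sites 1 did.

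Mki67, the Ki-67 proliferation gene, held 5 sites, of which the strongest scored 76 and 66. Dst, a cytoskeletal linker gene, held 5, with 88 and 71 at a CTCF match in coding segment 56 of 103 (chr1:34218436-34218605). Prr36 held 4 in 1 segment of 2196 bp, with scores of 123 and 91 to 67 and 46. Nup210l, a nucleoporin-like gene without an open promoter, held 4, the strongest at 79 and 60. Col6a3, a collagen VI chain gene, held 4, and its strongest (72 and 47) lay in no hotspot of either library. With replicate 1 peaks alone, Mki67 held 8 sites, Dst 9 and Col6a3 8, and above the median scores of both lists they held 1, 2 and 1.

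Receptor genes of developmental signalling held sites often. Of 25 genes of the Notch, Wnt and hedgehog receptor list, 12 were hosts (48.0%), with 20 sites, at 274 sites per Mb against 77.0 over all genes. Fzd8, a Wnt receptor gene of a single coding segment, held 4 sites, scored 102 and 77, 98 and 72, 78 and 53, and 47 and 24. RefSeq places a TSS 435 and 725 bp from the strongest of them, within the limit that the choice of sites set by GENCODE. Fzd7 had 1 site at 101 and 75 (chr1:59483876-59484025). Chosen after their values were seen, Fzd1 held 3 sites up to 82 and 46, and Jag1, a Notch ligand gene, 3 up to 84 and 60. All 25 genes of the list, the 12 hosts among them, had an open promoter. With a limit of 2500 bp to the TSS, Fzd8 had 1 site. The Fzd7 site lay 1527 bp from the nearest TSS, the Fzd1 sites 1034 to 1884 bp and the Jag1 sites 1063 to 2848 bp. Sites of the remaining hosts lay at 1240 to 21153 bp. Some of these hosts rested on 1 weak site each, also named after their values were seen. The sites of Dll1 (27 and 19), Lrp6 (21 and 13), Notch2 (19 and 9) and Celsr1 (10 and 8) were among the 183 weakest coding-exon sites. Over all genes, coding bases at 1000 to 2500 bp from a TSS held 104 sites per Mb. The part of TSS distance and GC in the density of this list was not tested.

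Developmental transcription factor genes held the sites most densely among the lists. Of 26 Iroquois, T-box, Sox and forkhead genes 7 were hosts (26.9%), with 13 sites at 491 per Mb. Sox4, a factor of progenitor cells, held 3 sites in its single coding segment, with scores of 97 and 57, 64 and 43, and 56 and 39. Foxa1, a pioneer factor of lung epithelium, held 3 in its last segment, with 71 and 53, 60 and 31, and 49 and 37. In both genes the sites of a gene lie in the same exon and are not independent. By distance to the nearest TSS, Sox4 sites lay at 1032 to 1932 bp and Foxa1 sites at 3370 to 3960 bp. Chosen after their values were seen, Foxo3 had a site at 1535 bp, Sox17 at 1403 bp and Foxj1 at 1338 bp. Likewise, Sox9 had sites at 1767 and 2827 bp and Tbx2 at 5580 and 8080 bp. RefSeq, however, places a TSS 352 bp from the Foxo3 site. The part of TSS distance and GC in the density of this list was not tested.

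Among cell type lists of the lung, endothelial genes stood above the share and density of all genes (8.95% and 77.0 sites per Mb), and others lay near the share or rested on 0 or 1 host. These differences were not tested. Endothelial genes were hosts in 7 of 21 cases (33.3%), at 155 sites per Mb, led by Plvap, the diaphragm protein of fenestrated capillaries (97 and 74, chr8:71507716-71507865), and Ednrb, an endothelin receptor gene (78 and 42). The other endothelial hosts held 1 site each, at 36 to 53 in replicate 1 and 29 to 38 in replicate 2. These lay below the medians of all coding-exon sites (63 and 43). Endothelial genes had a median of 1913 distal coding bp, against 936 over all genes. Of 13 alveolar type 2 genes 1 was a host (7.69%), Abca3, the surfactant lipid transporter gene (100 and 86, coding segment 10 of 30, chr17:24383876-24384045). Of 15 alveolar type 1 genes 1 was (6.67%), Sema3e (50 and 51). Smooth muscle genes had 0 hosts of 14, on 23.9 kb of coding sequence, too short for a count of 0 to set them apart. Mesenchyme and matrix genes had 3 of 27 (11.1%), at 60.1 sites per Mb, with Col6a3 and Tcf21, a factor of lung mesenchyme (65 and 42).

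Basement membrane genes were hosts in 5 of 17 cases (29.4%) on long coding sequence, at 86.4 sites per Mb, near the 77.0 of all genes, and were led by the laminin chain genes Lamc1 (70 and 59) and Lamb1 (86 and 42). Immediate early genes had 3 hosts of 23 (13.0%), led by Maff and Klf4. Chromatin and transcription cofactor genes had 4 of 32 (12.5%) on long coding sequence, at 29.4 sites per Mb, led by the histone methyltransferase genes Kmt2a (90 and 78) and Ash1l (69 and 51).

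Lists of other lineages also held sites, beside 8.95% hosts and 77.0 sites per Mb over all genes. These differences were not tested. Erythroid genes had 4 hosts of 12, at 180 sites per Mb, led by Klf1 and Epor, the erythropoietin receptor gene (75 and 46), and myeloid genes 3 of 17, at 126, led by Spi1 and Irf8 (106 and 82). Skeletal muscle genes had 5 of 18, led by the calcium channel gene Ryr1 (88 and 60), at 54.2 sites per Mb, below the density of all genes. Neuronal genes had 8 of 24, at 115 per Mb, led by Grin1, a glutamate receptor gene (87 and 50), and Scn8a, a sodium channel gene (47 and 55). Liver genes had Apoa1 alone, 1 of 19 (5.26%), at 28.6 sites per Mb, below all genes in share and density. The libraries are of whole tissue, and the share of cells with a site open could not be told apart from its degree of opening.

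Gene families were read in the same way, and their members are named after their values were seen. Of 51 keratin genes 11 were hosts (21.6%), at 251 sites per Mb. An open promoter was found in 13 of the 51 and in 1 of the 11 hosts. The strongest were Krt88 (88 and 56) and Krt77 (76 and 56). Dynein heavy chain genes, which drive cilia and transport, were hosts in 8 of 17 cases on very long coding sequence, at 40.6 sites per Mb. Adamts and Adamtsl genes were hosts in 7 of 24 (110 per Mb), zinc finger genes in 32 of 440 (49.3) and collagen genes in 5 of 42 (48.5). No site lay in 169 vomeronasal receptor genes with 297 kb of distal coding bases or in 271 olfactory receptor genes with 107 kb. There was also none in 39 ribosomal protein genes, whose 7.38 kb is too short for a count of 0 to differ from the 77.0 per Mb of all genes.

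**Figure D5:**
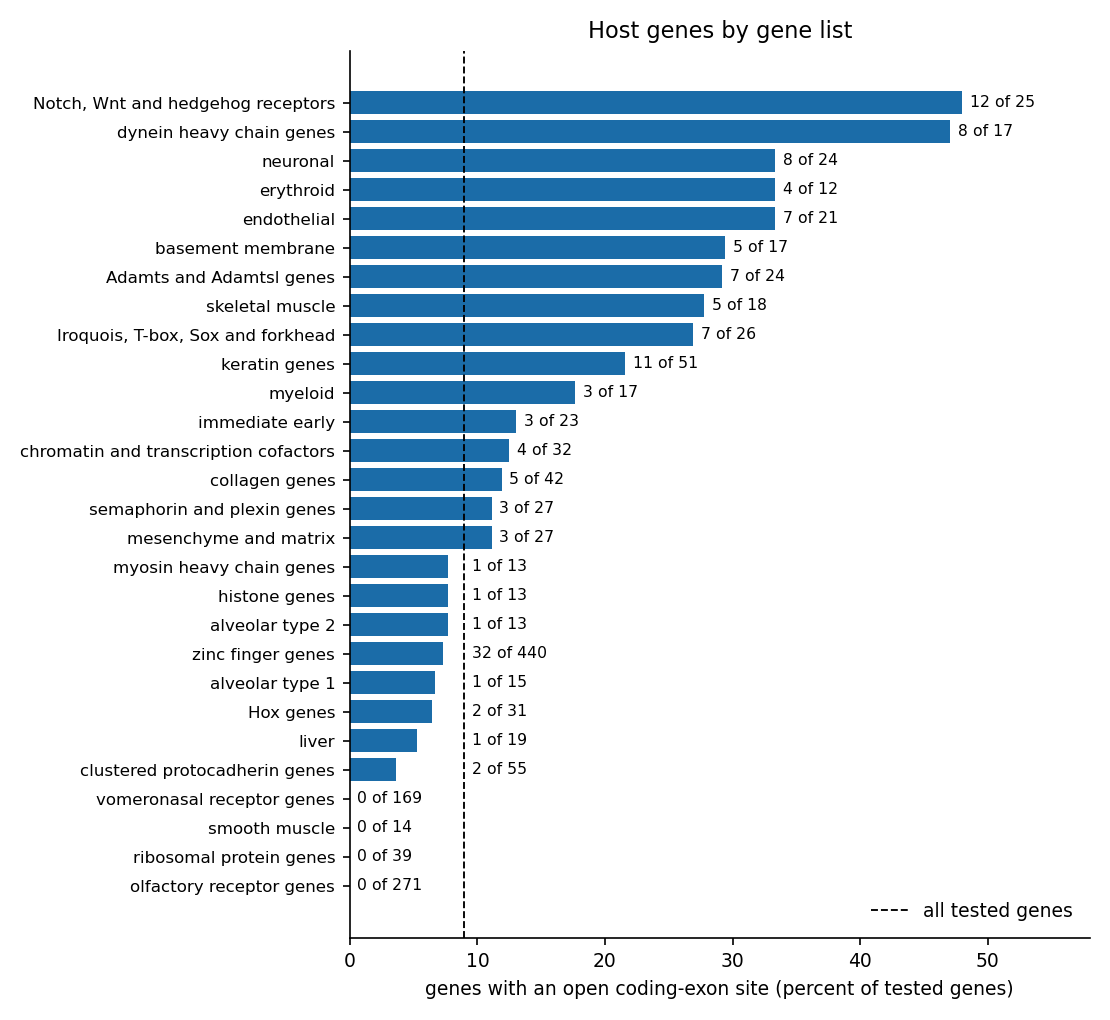
Percent of tested genes that held an open coding-exon site (x axis) in each gene list or family of at least 10 tested genes, with the number of hosts of the number tested; the dashed line is the share of all tested genes (8.95%). Lists differ in coding length, and dynein heavy chain genes (8 of 17) are long.

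Genes with an enhancer described in a coding exon were listed whatever their values. Adamts5, a protease gene of cartilage matrix, held 2 sites in its first coding segment, at chr16:85899376-85899545 (64 and 40) and chr16:85900116-85900265 (48 and 36). RefSeq places a TSS 339 and 282 bp from them, within the limit of 1000 bp that was set by GENCODE. Dync1i1, Hoxa2 and Krt18 held none. Every site found in Hoxa2 lay within 1000 bp of a TSS, among them a shared one at chr6:52163816-52164025 (95 and 76). The shared sites of Krt18 (43 and 29, 83 and 57) did so too. The rule left such sites out, so the lack of a site in these genes does not show that their coding exons were closed.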

How the data were processed

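The authors called peaks and hotspots separately for each library, from its own mm10 alignments, per the deposited notes. Aligner, caller, versions and depth are not given in the sources used here. Each deposited peak is 150 bp wide and carries a score, a whole number whose meaning was not given. Each deposited hotspot carries a −log10 q-value from the authors, with values up to 100. Of 276892 and 188726 listed peaks in replicates 1 and 2, 269825 and 183814 lay on chromosomes 1 to 19 and were used, with 239660 and 166236 hotspots.

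Peaks that overlapped by at least 1 bp were merged, and a site took the highest score of its peaks in each library. Coding segments and TSSs came from GENCODE M21, and RefSeq of the same assembly was the alternative. Classes of base were assigned in the order coding, other exonic, intronic, intergenic. Motifs were searched as exact words in 150 bp around the site centre. Closed coding windows are 150 bp in the middle of coding intervals, touching no peak or hotspot. Python 3.11.15 with numpy 2.4.6, pandas 2.3.3 and scipy 1.17.1 was used. On simulated sites, 60 of 60 planted coding sites and 20 of 20 planted motif sites were recovered.

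Members, motifs and the 16 gene lists and 13 families were chosen with earlier results of these data known, and support nothing independently. Named are the 20 strongest sites by mean rank, the 8 genes with the most sites, the 5 widest hotspots, the 6 strongest CTCF and AP-1 sites, up to 2 hosts of each list, the genes of known exonic enhancers and the 3 sites on each side of the TSS limit. Other genes are marked as chosen after their values were seen. Sequences on chromosome 18 or touching an untranslated region were not printed, and a host gene that the rule names is not reported here. Alternatives covered overlap, score, coding share, TSS distance, annotation, motif, promoter reach and each library alone. Neighbouring sites are not independent.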

Additional observations from a re-analysis of the deposited data

How the results depend on the processing

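Depth and mappability are not known from the sources used here, and 2 libraries of 1 group allow no estimate of spread beyond their difference. No paired analysis was possible because the series has 1 group. With scores above the list medians in both libraries, 876 sites in 809 genes remained, with median scores of 83 and 61, 99.7% in a hotspot of both, 58% GC, 7.88% with CTCF, 5.02% with AP-1, 30.7% in a last coding segment and a density ratio of 1.17. Either library alone gave 2081 to 3245 sites in 1805 to 2646 genes, 55.3% GC, 2.84 to 4.33% with CTCF, 5.05 to 5.12% with AP-1, 25.3 to 26.4% in a last segment and a ratio of 1.19 to 1.20. The lower CTCF share and the higher counts were those of replicate 1 alone. A limit of 2500 bp to the TSS gave 54% GC, 5.66% with AP-1, 27.5% in a last segment and a ratio of 1.14. An overlap of 75 bp gave 98.6% in a hotspot of both, 5.43% with AP-1 and 49.6% shared. At least 75 coding bp in the window gave 5.14% with AP-1. RefSeq gave 2365 sites, of which 1687 were among the 1839, with 4.91% AP-1 and 21.5% in a last segment, and counting last segments of any transcript gave 31.2%. The whole merged site gave 6.04% with AP-1, and 1 mismatch in the CTCF consensus gave 16.7% with CTCF. Host genes with an open promoter were 87.0% with a reach of 1000 bp and 88.1% among genes with at least 2 sites. The density ratio of coding to intronic bases reversed in direction, to 0.594, when the intronic density of each GC band was used, an alternative added after the data were seen. Without replicate 2, sites rose from 5 to 8 in Mki67, from 5 to 9 in Dst and from 4 to 8 in Col6a3. Above the list medians they held 1, 2 and 1, and Syne2 fell from 7 to 1. Fzd8 fell from 4 sites to 2 with RefSeq and to 1 with the limit of 2500 bp.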

Other observations

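Coding sites found in a single library differed from shared ones in CTCF content. The consensus lay in 3 of 1373 sites with only a replicate 1 peak (0.219%) and in 2 of 242 with only a replicate 2 peak (0.826%), against 86 of 1839 shared sites (4.68%). The AP-1 motif was in 5.10%, 3.72% and 5.33% of the same groups. Median GC was 54.7% in both groups of single-library sites.

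The 183 strongest and the 183 weakest shared coding-exon sites by mean rank differed in the same measure. CTCF was in 15 of the strongest (8.20%) and 2 of the weakest (1.09%), and AP-1 in 7 and 10. Median GC was 62.0% and 52.7%, and 46.4% and 22.4% lay in a last or only coding segment. By chromosome the density ran from 61.3 sites per Mb of coding bases on chromosome 9 to 100.1 on chromosome 3.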
